A study of Mus musculus with 41 samples.

Results

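Polycomb repressive complex 2 (PRC2) was followed through its messenger RNA in mouse mesothelioma, a tumor of the mesothelial lining of the chest. The members are 10 genes, chosen by name from the 27197 genes of the count table. The core is formed by Ezh2 or Ezh1, the alternative catalytic subunits, together with Eed, Suz12, and the histone chaperones Rbbp4 and Rbbp7. The accessory members are Jarid2 and Aebp2, which define the form called PRC2.2, and Mtf2 and Phf19, Polycomb-like proteins of the form called PRC2.1. PRC2 places methyl groups on lysine 27 of histone H3, a mark of silenced genes. Ezh2 is known as the subunit of dividing and embryonic cells and as a target of E2F factors, whereas Ezh1 is known from resting and differentiated cells. BAP1, which is deleted in part of these tumors, removes ubiquitin from histone H2A, the mark placed by the sister complex PRC1.

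The BNC lines JB81, JB91, and JB97 carry deletions of Bap1, Nf2, and Cdkn2ab, and the NC lines JB84, JB87, and JB93 carry those of Nf2 and Cdkn2ab, which both groups therefore share. Tumors were started in young adult mice of a mixed FVB, Bl6, and 129Ola background, given cyclosporine A in drinking water, by injecting adenovirus with Cre under the CMV promoter, which is active in most cell types, into the pleural space. Lines were early-passage outgrowths of chopped tumors, and tumor tissue was taken when mice fell ill. The 9 tumor libraries are tissue, 5 of BNC and 4 of NC genotype by the labels, but their column names do not give the genotype, so no tumor was compared by genotype. The columns were taken as tumors because they are the columns left after the 6 named lines. Library totals were between 12377675 and 23936922 reads in lines and between 8158740 and 21851974 reads in tumors. Levels are given in CPM, reads scaled to a fixed library total, here with TMM factors over the 15 libraries.

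Several libraries stood apart. JB81 and JB91 were close to each other (r = 0.998 across genes), as were JB84 and JB93 (r = 0.995), against 0.878 for JB81 with JB97 and 0.807 for JB84 with JB87. Counts of the close pairs differed beyond sampling noise (chi-square per degree of freedom 13.5 and 19.5), and each pair was split over the same 2 runs. No libraries known to repeat a single culture were at hand, so whether such libraries would differ as much was not tested. The 6 lines were kept as the labels list them, but whether the lines of a close pair are independent was not tested, and nothing in the labels says that the lines of a group came from different animals. The p-values therefore measure only the spread between these libraries, which may be technical. JB81 and JB91 had most of their mesothelial marker signal from Wt1 (126 and 127 CPM of 130 and 131 CPM summed over 8 genes), whereas JB97 and the NC lines had Msln, the mesothelin gene, as their most abundant marker. Tumor B1 was the shallowest library, with 38.5% of its reads in Gm42418 and Lars2. Striated muscle markers summed to 18980 CPM in B45, 27650 CPM in B1, and 25800 CPM in B19, against 120 CPM in B14, and lung epithelium markers to 44350 CPM in B2. Leukocyte markers summed to between 627 and 5844 CPM in tumors and at most 46.2 CPM in lines, with Lyz2 the most abundant gene in every tumor. In lines the sum was 41.7 CPM in JB81 and 46.2 CPM in JB91, mostly Lyz2 (35.7 and 40 CPM). It was between 4.40 CPM in JB84 and 5.28 CPM in JB97 in the other lines. Lyz2 did not overlap between BNC and NC lines (log2 change 7.64, adjusted p = 0.0354 by edgeR), but its high values were those of JB81 and JB91. In JB97 the most abundant leukocyte marker was Cd68, at 3.30 CPM, and Lyz2 lay below that. Between tumors and lines all 10 leukocyte, 3 of 4 endothelial, 4 of 5 fibroblast, and 3 of 4 tested muscle markers were called higher in tumors. Mesothelial markers were present in every tumor, between 785 and 4768 CPM summed. Tumor levels are therefore those of mixed tissue, in which fewer cells of a type and less RNA per cell cannot be told apart.

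The alternative catalytic subunits changed places between culture and tissue. Per kilobase of exon, Ezh2 was at 16.5 ± 6.61 CPM per kb in lines (SD, n = 6) and 3.87 ± 1.78 CPM per kb in tumors (SD, n = 9), and Ezh1 at 2.32 ± 0.913 and 5.90 ± 1.80 CPM per kb. Ezh2 was thus the higher of the pair in 6 of 6 lines, and Ezh1 the higher in 8 of 9 tumors. The exception was tumor 22, with 7.18 CPM per kb of Ezh2 and 3.66 CPM per kb of Ezh1. With the length of the longest transcript in place of the exon union, Ezh1 was the higher in 5 of 9 tumors, so the order of the pair in the tumors B13, B27, and B14 depends on the length used.

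**Figure D1:**
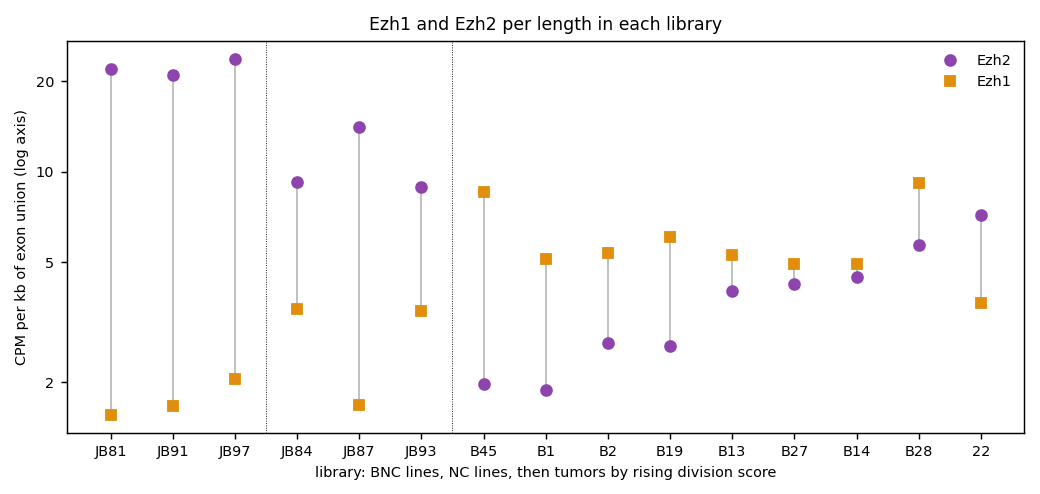
Level of Ezh1 (squares) and Ezh2 (circles) in each library, in CPM per kb of exon union on a log axis, for the BNC lines, the NC lines, and the tumors by rising division score. Grey bars join the values of a library; Ezh2 lies above Ezh1 in all 6 lines, Ezh1 lies above Ezh2 in 8 of 9 tumors, and the pair is reversed in tumor 22.

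A ratio of 2 genes within a library does not depend on how libraries are scaled. Among BNC lines, the log2 ratio of Ezh1 to Ezh2 per kb came to -3.81 for JB81, -3.65 for JB91, and -3.53 for JB97. Among NC lines, JB84 had -1.40, JB87 -3.06, and JB93 -1.36. All BNC lines were below all NC lines, with JB87 nearer to the BNC lines than to the other NC lines. In tumors it ran from -0.97 in tumor 22 through a median tumor, B28, at 0.69 to 2.12 in B45. No tumor overlapped the lines. The mean was 0.69 ± 0.89 in tumors (SD, n = 9) and -2.80 ± 1.13 in lines (SD, n = 6), a difference of 3.49 (exact permutation test, two-sided, p = 0.0004, the smallest this design can give). Between lines the mean was -3.66 ± 0.14 in BNC and -1.94 ± 0.97 in NC (SD, n = 3 each), a difference of -1.72 (exact permutation test, two-sided, p = 0.1, the smallest that 3 against 3 allow). Without JB87 that difference was -2.28. These tests count each line as a unit, although 2 pairs of lines were close. With each close pair summed into 1 library, the difference between tumors and lines was 3.615 (exact permutation p = 0.0028). That between BNC and NC lines was then -1.41 (exact permutation p = 0.333).

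The start sites of these genes were compared for the E2F motif, because E2F factors drive genes of dividing cells. The letters searched were TTTCCCGC, TTTCGCGC, TTTGCCGC, and TTTGGCGC on both strands, in windows from 250 bases before to 50 bases after each RefSeq start (GRCm38.p6). All 10 genes matched at least 1 window, and Jarid2, Aebp2, and Mtf2 had several starts. A motif was found for Ezh2, Suz12, and Phf19, 3 of 10 genes, against 2.6% of the 27025 genes with a window. Of 6 division and replication genes also searched, Cdk1 had a match, and Mki67, Top2a, Ccnb1, Mcm2, and Pcna had none. A match is a description of letters and not of binding. The stretches are shown for the 3 genes with a match, with Ezh1 as a gene without a match. Whether a match goes with the values given below was not tested. They run 5′ to 3′ on the strand of the gene, with the motif, read on either strand, in capitals. The Ezh2 stretch (minus strand, chr6:47595009-47595038) runs from base -8 to base 22 of the transcript, counted from 1 at its start. That of Suz12 (plus strand, chr11:79992876-79992905) begins at base -230, and that of Phf19 (minus strand, chr2:34914166-34914195) at base -219. The Ezh1 stretch (minus strand, chr11:101226464-101226493) is the 30 bases before the start.
Ezh2: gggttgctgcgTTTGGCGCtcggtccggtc
Suz12: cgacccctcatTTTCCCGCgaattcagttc
Phf19: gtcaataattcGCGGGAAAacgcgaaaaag
Ezh1: gcgcacggaggggaggcgcggggcgtggcc
The other motif searched, the CHR element of genes of mitosis (TTTGAA or TTCGAA), was found for Eed, Suz12, Aebp2, and Mtf2, 4 of 10 genes, against 21.7% of genes, in Aebp2 and Mtf2 at 1 of their starts only. It was found for neither Ezh2 nor Ezh1. The E2F match of Suz12 and its CHR match lie apart and do not overlap.

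Which subunits differed with Bap1 status was asked in the 6 lines. As a check of the labels, Bap1 was at 40.5 ± 2.72 CPM in BNC and 58.1 ± 2.57 CPM in NC lines (SD, n = 3), so reads of the gene were still counted in BNC lines. The log2 change of Bap1 was -0.57 (adjusted p = 0.039 by edgeR). By the paper's methods, the loxP sites of the conditional allele flank only a part of the exons. The counts have no values by exon, and where in the gene these reads lie was not analysed here. In the quasi-likelihood test of edgeR, adjusted by Benjamini-Hochberg over 12376 genes, 0 of 10 members passed an adjusted p of 0.01, where 1.1% of all genes passed. At an adjusted p of 0.05, 1 of 10 members passed, Ezh2, where 14.2% of all genes passed. At an unadjusted p of 0.05, 2 of 10 members passed, Ezh2 and Suz12, where 35.6% of all genes passed. The 3 libraries of each group did not overlap for 5 of 10 members, where this held for 42.3% of all genes. With 10 members these shares are near those of all genes, and nothing is read from them about the members.

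Ezh2 (ENSMUSG00000029687, chromosome 6, 47530139 to 47595341 of GRCm38) had 147 CPM for JB81, 140 CPM for JB91, and 159 CPM for JB97 among BNC lines. Among NC lines it had 61.8 CPM for JB84, 94.1 CPM for JB87, and 59.2 CPM for JB93. The groups did not overlap, and JB87 was the highest NC line. The log2 change, BNC minus NC, was 0.99 (standard error 0.22, adjusted p = 0.0374), a 1.99-fold difference. Without JB87 it was 1.26 (adjusted p = 0.00128), and without any other line between 0.86 and 1.05 (adjusted p between 0.0488 and 0.149). DESeq2 gave 1.01 (adjusted p = 0.000862). With JB81 and JB91, and JB84 and JB93, each summed into 1 library, it was 0.90 (adjusted p = 0.41), and with the replicate number as a block 0.86 (adjusted p = 0.245). Of 8 mesothelial markers 7 were lower on average in BNC lines (median log2 change -2.90, with 0 past an adjusted p of 0.01). At an adjusted p of 0.05, where 14.2% of all genes passed, 2 of the 8 were lower, Krt18 (-8.12, adjusted p = 0.0187 by edgeR) and Krt8 (-6.74, adjusted p = 0.0457). The part of the mesothelial markers in the values of the members was not tested.

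Ezh1 (ENSMUSG00000006920, chromosome 11, 101191115 to 101226463) leaned the other way. The BNC lines JB81, JB91, and JB97 held 11.6, 12.4, and 15.2 CPM, and the NC lines JB84, JB87, and JB93 held 26.03, 12.5, and 25.7 CPM. JB87 lay among the BNC lines, so the groups overlapped. The log2 change was -0.77 (standard error 0.32, adjusted p = 0.145), and without JB87 -1.02 (adjusted p = 0.00652). Without JB84 it was -0.60 (adjusted p = 0.387), and without JB93 -0.64 (adjusted p = 0.373). In the fit without JB87, 3580 genes were called.

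Suz12 and Eed had values opposite in sign to that of Ezh2 in the lines. Suz12 (chromosome 11, 79993106 to 80034123), which holds the core together, had 131, 126, and 144 CPM in the BNC lines (JB81, JB91, JB97) and 184, 170, and 160 CPM for JB84, JB87, and JB93. All BNC lines were below all NC lines (log2 change -0.41, standard error 0.13, adjusted p = 0.0839). Eed (chromosome 7, 89954654 to 89980983), the subunit that binds the finished mark, was at 53.9 ± 7.65 CPM in BNC and 65.6 ± 2.67 CPM in NC lines (SD, n = 3), again without overlap (log2 change -0.34, adjusted p = 0.15). Rbbp4 and Rbbp7, which also serve in other chromatin complexes, split the NC lines. Rbbp4 was at 162 and 161 CPM in JB84 and JB93 and at 288 CPM in JB87, near the 289 to 312 CPM of the BNC lines. Rbbp7 was at 166 and 162 CPM in JB84 and JB93 and at 301 CPM in JB87, within the 298 to 315 CPM of the BNC lines. Their log2 changes were 0.50 (adjusted p = 0.225) and 0.49 (adjusted p = 0.247), and 0.86 and 0.87 without JB87 (adjusted p = 0.00186 and 0.00177). Without JB93 they were 0.34 and 0.32 (adjusted p = 0.515 and 0.546). Reads of Rbbp4 and Rbbp7 can be lost or shared with pseudogenes and with genes that overlap them on the other strand, Sync and Txlng.

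Of the accessory members, Phf19 (chromosome 2, 34893757 to 34914026) varied most between lines. JB81 and JB91 had 22.4 and 22.9 CPM, but JB97 had 8.68 CPM, while JB84 and JB93 had 3.58 and 4.21 CPM, but JB87 had 17.1 CPM. The groups overlapped (log2 change 1.07, standard error 0.73, adjusted p = 0.326). Without JB87 the change was 2.18 (adjusted p = 0.0228), and without JB84 0.70 (adjusted p = 0.611). Mtf2 (chromosome 5) was at 49.6 ± 8.01 CPM in BNC and 38.1 ± 1.34 CPM in NC lines (SD, n = 3), with no overlap (log2 change 0.33, adjusted p = 0.215). Aebp2 (chromosome 6) and Jarid2 (chromosome 13) overlapped between groups, with log2 changes of -0.23 (adjusted p = 0.393, between -0.12 without JB91 and -0.40 without JB97) and 0.15 (adjusted p = 0.696).

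**Figure D2:**
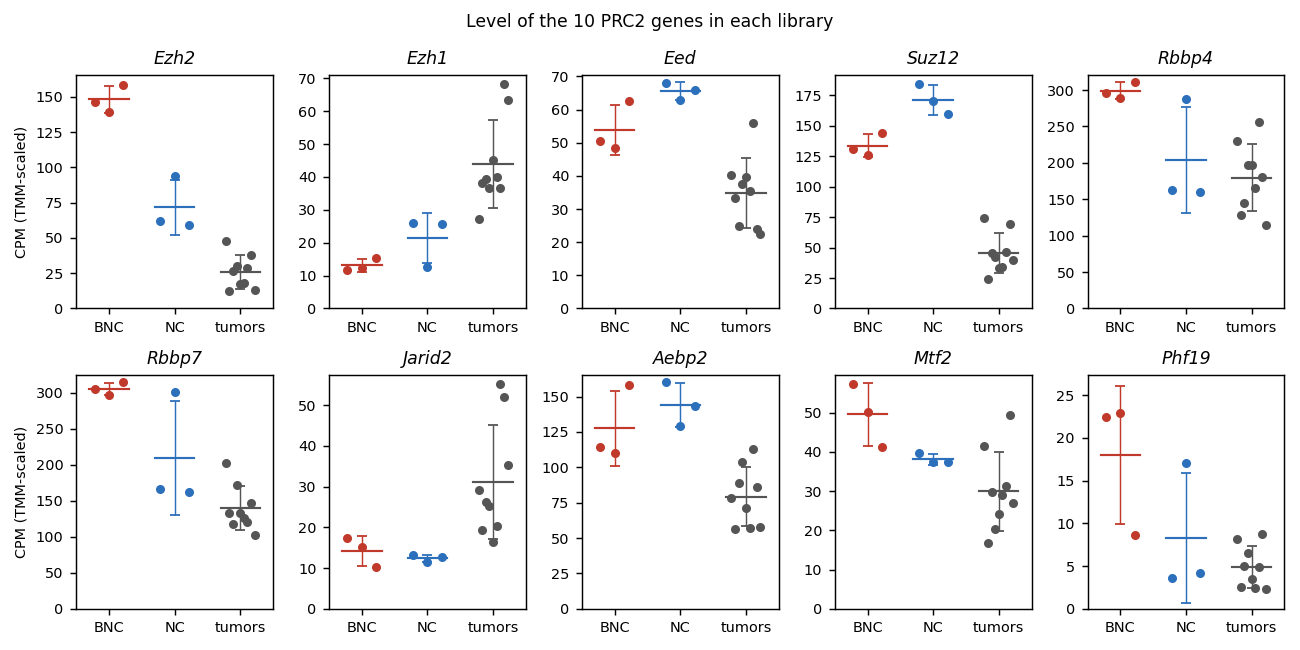
Level of each of the 10 PRC2 genes in CPM (vertical axis, from 0), with a point for each library of the BNC lines, NC lines, and tumors, a line for the group mean, and bars for the SD. Ezh2 in the tumors (12.6 to 47.9 CPM) lies below every line, Ezh1 in the tumors lies above every line, and in Rbbp4, Rbbp7, and Phf19 a single NC line, JB87, sits with the BNC lines.

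Tumor tissue was then compared with the cultured lines. Over 14383 genes tested, 41.3% passed an adjusted p of 0.01, 24.2% higher and 17.2% lower in tumors, and the median of all genes was 0.17 on the log2 scale. It was 0.06 with library size in place of TMM and 0.65 with DESeq2. Of the members, 7 of 10 passed, 2 higher and 5 lower in tumors, with a median over the 10 members of -0.74. Groups did not overlap for 3 members, Ezh2, Ezh1, and Suz12, where this held for 26.1% of all genes. All tumor libraries carry a prefix that no line carries, so tissue and whatever the prefix stands for cannot be told apart.

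Ezh2 was between 12.6 CPM in B1 and 47.9 CPM in tumor 22, with a median of 26.7 CPM, against 59.2 CPM or more in every line. Its log2 change fell by 2.06 (standard error 0.30, adjusted p = 5.71e-05), which is -2.23 relative to the median of all genes. Suz12 was between 23.95 and 74.4 CPM, with a median of 42.0 CPM, against 126 CPM or more in every line, and fell by 1.72 (standard error 0.21, adjusted p = 1.15e-05, or -1.89 relative to all genes). Ezh2 and Suz12 passed in the main test and in all 9 other tests of this comparison. Ezh1 was between 27.2 CPM in tumor 22 and 68.3 CPM in B28, with a median of 39.3 CPM, above every line. It rose by 1.39 (standard error 0.27, adjusted p = 0.000519, or 1.22 relative to all genes). Without the 5 tumors rich in muscle or lung markers the change of Ezh1 was 1.27 (adjusted p = 0.0158), that of Ezh2 -1.60 (adjusted p = 0.0041), and that of Suz12 -1.40 (adjusted p = 0.00106).

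Jarid2, which recruits PRC2 and helps its activity, was the other member that rose. It was between 10.2 and 17.4 CPM in lines and between 16.5 and 55.2 CPM in tumors, with B27 and B28 (55.2 and 52.0 CPM) far above the other tumors. Its log2 change was 1.26 (standard error 0.28, adjusted p = 0.00128). Its partner in PRC2.2, Aebp2, went the opposite way, from 136 ± 21.6 CPM in lines (SD, n = 6) to 79.2 ± 20.8 CPM in tumors (SD, n = 9), and fell by 0.75 (adjusted p = 0.00153). Eed fell by 0.74 (adjusted p = 0.00473) and Rbbp7 by 0.84 (adjusted p = 0.00185). Over the 10 tests of this comparison, Ezh1 was called in 8, Jarid2 and Rbbp7 in 7, Aebp2 in 6, and Eed in 4, with the highest adjusted p at 0.0225 for Ezh1, 0.0229 for Jarid2, 0.0755 for Rbbp7, 0.0537 for Aebp2, and 0.0904 for Eed. Rbbp4 (log2 change -0.45, adjusted p = 0.0746), Mtf2 (-0.51, adjusted p = 0.049), and Phf19 (-1.39, adjusted p = 0.0144) did not pass. Phf19 was called in 2 of the 10 tests, with DESeq2 (-1.33, adjusted p = 0.00768) and against BNC lines only (-1.81, adjusted p = 0.00407), and was -0.77 (adjusted p = 0.26) against NC lines only. Rbbp4 and Mtf2 were called in 0 of the 10.

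**Figure D3:**
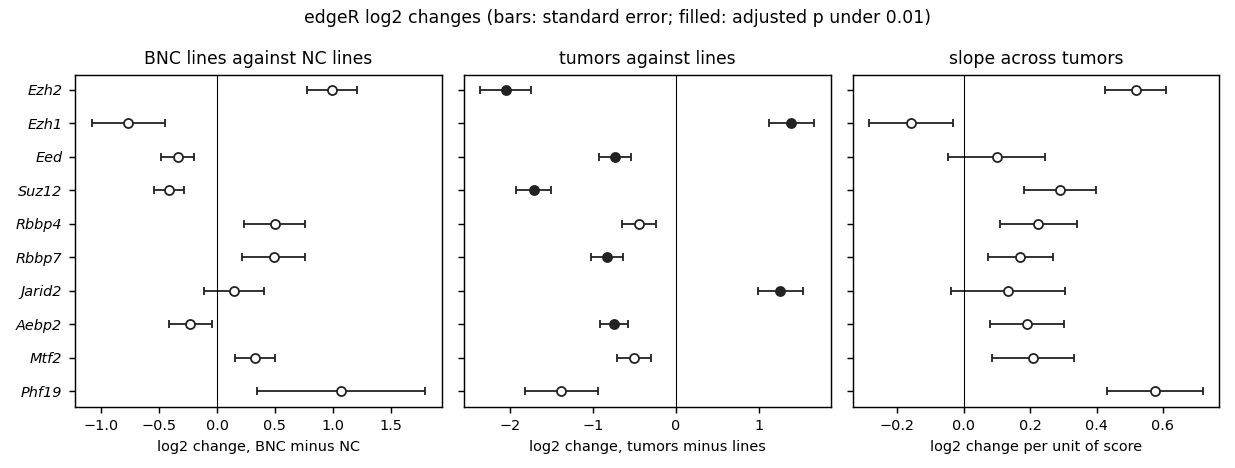
Log2 changes of the 10 genes from edgeR for BNC against NC lines, tumors against lines, and the slope on the division score across tumors (horizontal axes), with bars for the standard error and filled points for an adjusted p under 0.01. Filled points occur only between tumors and lines, where Ezh1 (1.39) and Jarid2 (1.26) lie to the right of 0 and 5 members to the left.

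Per kilobase of exon union the order of the members shifted with these changes. In lines Rbbp7 was highest (88.6 ± 25.1 CPM per kb; SD, n = 6), then Suz12 (30.8 ± 4.62) and Rbbp4 (28.7 ± 8.02), which did not differ beyond their spread, then Ezh2 (16.5 ± 6.61), Eed (15.6 ± 2.15), Aebp2 (13.8 ± 2.19), and Mtf2 (7.70 ± 1.43). Phf19 (2.61 ± 1.75), Ezh1 (2.32 ± 0.913), and Jarid2 (1.37 ± 0.268) were lowest, and Phf19 was above Ezh1 in only 3 of 6 lines. Ezh2 was above Eed in 3 of 6 lines, the BNC lines. In tumors Rbbp7 (48.0 ± 10.6 CPM per kb; SD, n = 9) and Rbbp4 (20.5 ± 5.29) led in every library. Suz12 (9.17 ± 3.35), Eed (9.11 ± 2.74), and Aebp2 (8.04 ± 2.11) followed within each other's spread. Ezh1 (5.90 ± 1.80), Mtf2 (5.25 ± 1.78), and Ezh2 (3.87 ± 1.78) came next, and Phf19 (0.973 ± 0.488) was lowest in every tumor, below Jarid2 (3.19 ± 1.44) in 9 of 9. The middle of this order depends on the length used. With the longest transcript, Ezh2 had 39.5 ± 15.8 CPM per kb in lines, below Rbbp4 (53.9 ± 15.05) and above Suz12 (34.9 ± 5.22) on average, and was above Eed in 4 of 6 lines. In tumors it had 9.26 ± 4.26 CPM per kb, next to Ezh1 (10.4 ± 3.18) and Suz12 (10.4 ± 3.79).

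How Ezh2 follows dividing cells was asked across the 9 tumors with a division score, the mean log2(CPM + 1) of 18 genes of mitosis, among them Mki67, Top2a, Cdk1, and Ccnb1. No PRC2 gene is in the score. It was 2.55 in B45, 3.53 in B1, 3.70 in B2, 4.31 in B19, 4.49 in B13, 4.90 in B27, 5.01 in B14, 5.64 in B28, and 6.20 in tumor 22. In that order Ezh2 was at 13.1, 12.6, 18, 17.7, 26.7, 28.4, 29.8, 38.1, and 47.9 CPM. The order by Ezh2 was thus that of the score, except that B45 and B1, and B2 and B19, were exchanged. Across tumors Pearson's r was 0.953 (exact permutation test, two-sided, p = 0.000113, adjusted p = 0.000339) and Spearman's rho 0.967 (exact permutation p = 0.000165, adjusted p = 0.000496), adjusted over 3 relations. Without B45 and tumor 22, the tumors farthest from the median score, r was 0.947 (n = 7, exact permutation p = 0.00179). With a score from 15 replication genes r was 0.930 (n = 9, exact permutation p = 0.00038). The tumors mix BNC and NC genotypes that the column names do not give. In the lines both Ezh2 and the score were higher on average in BNC. Genotype was therefore not in this relation or in the slopes below, and its part was not tested.

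Ezh1 had no such relation. In the same order of tumors it was at 63.5, 38.1, 39.9, 45.1, 39.3, 36.8, 36.7, 68.3, and 27.2 CPM, highest in B28 and B45, which lie far apart in score. Pearson's r was -0.385 (exact permutation p = 0.306, adjusted p = 0.306) and Spearman's rho -0.417 (exact permutation p = 0.27, adjusted p = 0.27). Without B45 and tumor 22, r was 0.559 (n = 7, exact permutation p = 0.204), so even its direction rests on those tumors, and with library size in place of TMM r was 0.197 (exact permutation p = 0.619). The log2 ratio of Ezh1 to Ezh2, a relation added after the values were seen, gave r = -0.897 (exact permutation p = 0.0016, adjusted p = 0.0024) and rho = -0.883 (exact permutation p = 0.00308, adjusted p = 0.00461). Without B45 and tumor 22 its r was -0.685 (n = 7, exact permutation p = 0.0948).

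**Figure D4:**
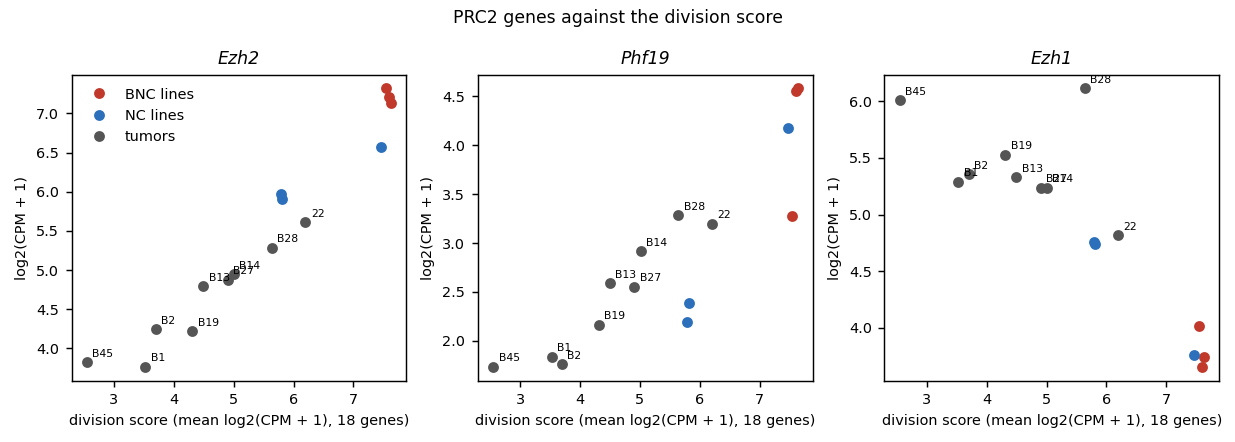
Log2(CPM + 1) of Ezh2, Phf19, and Ezh1 (vertical axes) against the division score (horizontal axis, mean log2(CPM + 1) of 18 mitosis genes), with a point for each library and names beside the tumors. Ezh2 rises with the score across the 9 tumors (r = 0.953), and JB84 and JB93, the lines within the range of tumor scores, lie above the tumors on either side of them; Ezh1 shows no such order in tumors and is lowest in the 4 lines with the highest scores.

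Fitted across all genes, the slope on the score passed an adjusted p of 0.01 for 0 of 10 members, where 0.619% of 15183 genes passed, and an adjusted p of 0.05 for 1 of 10, Ezh2, where 2.94% of genes passed. Ezh2 was higher by 0.52 per unit of the score (log2 scale, standard error 0.09, adjusted p = 0.0205 by edgeR). The 18 genes of the score itself had a median slope of 1.01, and Mcm2 and Pcna, which act in replication, had 0.57 and 0.50. With library size in place of TMM the median slope of all genes was 0.19, against -0.01 here, and that of Ezh2 0.66 (adjusted p = 0.019). DESeq2 gave Ezh2 0.53 (adjusted p = 1.13e-06). Without tumor 22 the slope was 0.49 (adjusted p = 0.146), without B45 0.60 (adjusted p = 0.0442), and without both 0.61 (adjusted p = 0.17).

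Phf19 was the member nearest to Ezh2 in this respect, with a slope of 0.58 (standard error 0.14, adjusted p = 0.0604 by edgeR, 0.000249 by DESeq2). In order of rising score it was at 2.33, 2.58, 2.38, 3.48, 5.03, 4.87, 6.55, 8.73, and 8.17 CPM. The value of B1 rests on 10 reads. Suz12 had a slope of 0.29 (adjusted p = 0.152), Rbbp4 0.22 (adjusted p = 0.284), and Mtf2 0.21 (adjusted p = 0.347). Without B45 the slope of Suz12 was 0.51 (adjusted p = 0.0665), that of Mtf2 0.35 (adjusted p = 0.224), and that of Jarid2 0.41 (adjusted p = 0.309), against 0.13 with all tumors. The other slopes were between -0.16 for Ezh1 and 0.19 for Aebp2, each with an adjusted p of 0.338 or more. The slope of Eed, 0.10 (adjusted p = 0.744), was -0.12 without B45 and tumor 22.

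Striated muscle signal was highest among tumors with a low score. B45, B1, and B19, the tumors with the most striated muscle signal, had the lowest, the next, and the fourth lowest score. All 5 muscle markers had a slope below 0 (median -1.65), with 0 of 5 past an adjusted p of 0.05 by edgeR and 3 at an unadjusted p of 0.05. Of all genes, 2.94% passed an adjusted p of 0.05, and 3461 of 15183 had an unadjusted p under 0.05. The 3 lung markers tested also had slopes below 0, with 0 of 3 past an adjusted p of 0.05 and 2 at an unadjusted p of 0.05. Their part in the relation of Ezh2 to the score was not tested. The leukocyte list had a median slope of -0.18, with 0 of 10 genes past an adjusted p of 0.05 and 3 at an unadjusted p of 0.05. Those 3 had slopes below 0, Cd79a (-1.93), Ms4a1 (-1.61), and Cd79b (-1.27). With the leukocyte score as a further term the slope of Ezh2 was 0.49 (adjusted p = 0.0617).

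The division score of the BNC lines JB81, JB91, and JB97 came to 7.60, 7.63, and 7.54, and that of the NC lines JB84, JB87, and JB93 to 5.79, 7.46, and 5.81. JB87 thus had the score of a BNC line. With 2 pairs of nearly equal libraries among the 6 lines, no correlation is given. Ezh2 in JB87 (94.1 CPM) was above JB84 and JB93, as its score was, and below each BNC line, whose scores were like its own. Set on the straight line through the 9 tumors (slope 0.546 of log2(CPM + 1) per unit of score), Ezh2 was above that line in every cell line, by 0.89 in JB81, 0.80 in JB91, 1.03 in JB97, 0.64 in JB84, 0.32 in JB87, and 0.56 in JB93. The scores of JB84 and JB93 lie between those of B28 and tumor 22, while the other lines lie past the range of the tumors. At those scores JB84 and JB93 had 61.8 and 59.2 CPM of Ezh2, and B28 and tumor 22 had 38.1 and 47.9 CPM.

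With the score as a covariate, a fit added after the data were seen, the difference between BNC and NC lines was 0.54 for Ezh2 (standard error 0.14, adjusted p = 0.104 by edgeR). It was 0.08 for Ezh1 (adjusted p = 0.831), -0.21 for Phf19 (adjusted p = 0.851), -0.08 for Rbbp4 (adjusted p = 0.702), and -0.11 for Rbbp7 (adjusted p = 0.565), opposite in sign to the values without it. Suz12, at -0.41 (adjusted p = 0.184), was almost the same with and without the score. The score was read from the same libraries, and it separates JB84 and JB93 from the other 4 lines.

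The division genes themselves gave the frame for these values. Of the 18 genes of mitosis, 18 were higher on average in BNC lines (median log2 change 0.96) and 0 passed an adjusted p of 0.01 by edgeR, with 3 at an unadjusted p of 0.05, where 35.6% of all genes passed. Mki67, a marker of cycling cells, had 1009, 972, and 853 CPM in JB81, JB91, and JB97, against 263, 749, and 259 CPM in JB84, JB87, and JB93. Of the 15 replication genes, 15 were higher on average in BNC lines (median 1.09), again with 0 passing and 0 at an unadjusted p of 0.05. Between tumors and lines, 15 of 18 mitosis genes and 14 of 15 replication genes passed an adjusted p of 0.01 as lower in tumors, where 17.2% of all genes did, with medians of -2.46 and -1.87. All 18 and all 15 were lower at an adjusted p of 0.05. Mki67 fell by 2.75, Top2a by 2.77, Mcm2 by 2.53, and Pcna by 1.37, so the fall of Ezh2, 2.06, lay within theirs.

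Of 15 genes of the E2F and DREAM machinery, which turns division genes on and off, 1 rose and 8 fell in tumors at an adjusted p of 0.01, where 24.2% and 17.2% of all genes did. The gene that rose was E2f2, an activator (log2 change 1.31, adjusted p = 0.00885), named here after its value was seen. Foxm1 and Mybl2, activators of mitotic genes, fell by 2.60 (adjusted p = 0.00034) and 2.503 (adjusted p = 0.000355), and E2f4, a repressor in DREAM, by 0.57 (adjusted p = 0.00371). E2f1, an activator, had a log2 change of -0.46 (adjusted p = 0.29), and the repressors Rb1 and Rbl2 had 0.55 (adjusted p = 0.119) and 0.08 (adjusted p = 0.806). Rbl1 and E2f7, of the same list, were called lower, at -1.67 (adjusted p = 0.000512) and -3.055 (adjusted p = 0.00026). Between lines 0 of 15 passed an adjusted p of 0.01, with 3 at an unadjusted p of 0.05, where 35.6% of all genes passed. At an adjusted p of 0.05, 1 of the 15 was higher and 1 lower in BNC lines, where 14.2% of all genes passed. Rb1, whose product holds E2F back, was lower in all BNC lines (log2 change -1.40, adjusted p = 0.0156). Rbl1 was higher in all BNC lines (log2 change 0.88, adjusted p = 0.0457), and E2f1 was at 1.05 (adjusted p = 0.139). Across tumors the slopes of E2f1, 0.59 (adjusted p = 0.0267), and Foxm1, 0.96 (adjusted p = 0.0108), did not pass 0.01, nor did any of the 15, where 0.619% of all genes passed. At an adjusted p of 0.05, 4 of 15 passed with slopes above 0, where 2.94% of all genes passed. These were E2f1, Foxm1, E2f7 (0.90, adjusted p = 0.0387), and E2f8 (1.60, adjusted p = 0.0152).

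Other genes around PRC2 were taken from a list of 6, of which 5 were measured and tested. Between lines 0 of 5 passed by edgeR, where 1.1% of all genes passed, with 1, Lcor, at an unadjusted p of 0.05, where 35.6% passed. Between tumors and lines 1 rose and 1 fell, where 24.2% and 17.2% of all genes did. With 5 genes nothing is read from these counts. Phf1, the remaining Polycomb-like gene, rose by 1.73 (adjusted p = 0.000202), from 13.9 ± 5.64 CPM in lines (SD, n = 6) to 44.7 ± 16.9 CPM in tumors (SD, n = 9), without overlap. Its relatives Mtf2 and Phf19 had values below 0 in that comparison. In lines Phf1 had the pattern of Ezh1, at 9.70 CPM in JB87 against 19.6 and 22.4 CPM in JB84 and JB93 and 9.09 to 11.4 CPM in the BNC lines. Lcor, whose locus encodes an accessory protein of PRC2.1, fell by 2.54 (adjusted p = 0.000198), from 15.02 ± 4.63 to 2.53 ± 1.76 CPM. Epop, also of PRC2.1, was at 7.52 ± 2.76 CPM in lines and 3.82 ± 2.496 CPM in tumors (log2 change -0.94, adjusted p = 0.0771). The demethylases that remove the PRC2 mark, Kdm6a (-0.64, adjusted p = 0.0629) and Kdm6b (0.33, adjusted p = 0.503), did not pass. Kdm6b ranged from 13.1 CPM in B1 to 103 CPM in B27.

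The genes whose log2 CPM ran most like Ezh2 over the 9 tumors, out of 8291 genes with a mean log2 CPM above 4, were Rassf1 (r = 0.988), Rlim (r = 0.986), Tpx2 (r = 0.980), Nop58 (r = 0.979), and Smc2 (r = 0.974). Tpx2, a spindle factor, is in the division score, and Smc2 encodes a condensin subunit. Those most like Ezh1 were Mitf (r = 0.891), Slc16a10 (r = 0.874), Per1 (r = 0.870), Calcoco1 (r = 0.860), and Zfp598 (r = 0.860). The highest values for Ezh1 were thus below those for Ezh2. These values share libraries, tissue makeup, and depth, and are a description.

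DNA of 14 tumors, B20 and B21 of which carry the same animal number, was read in 20-kb bins as log2 ratios against normal tail. RNA columns B2, B13, B14, B19, and B28 have names that also head DNA columns. At the 9 autosomal members the median of the bins that overlap the gene, taken relative to the autosomal median of the tumor, stayed within 0.3 of 0 in all 14 tumors, with extremes of -0.28 at Rbbp4 in B28 and 0.16 at Suz12 in B5. At Ezh2 it was between -0.08 and 0.08, and at Ezh1 between -0.16 and 0.09. The SD between single bins of a tumor was between 0.119 and 0.163, and a gene was covered by 2 to 10 bins, so small gains or losses were not detectable. Rbbp7, on the X chromosome and covered by 1 bin, was different. It was below -0.3 in 6 tumors, B5, B19, B20, B21, B23, and B25, between -0.76 and -1.22, and within 0.3 of 0 in the other 8. In those 6 tumors the whole X chromosome was as low, with medians between -1.05 and -0.98, and over the bins within 500 kb of Rbbp7 the difference from the X chromosome was at most 0.10 in any tumor. Of the tumors with both names, B19 was the only tumor with a low X chromosome, and its Rbbp7 RNA, 134 CPM, was the median of the 9 tumors.

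**Figure D5:**
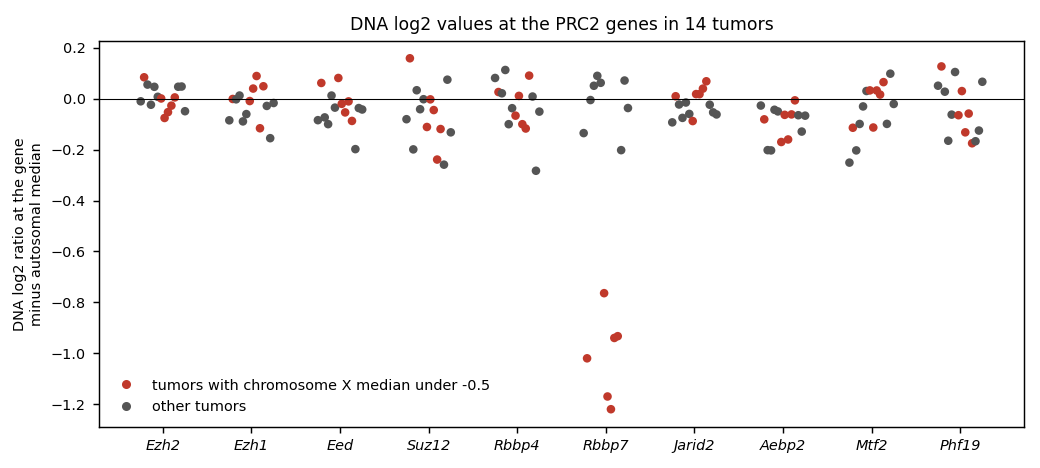
DNA log2 ratio at each PRC2 gene minus the autosomal median (vertical axis), with a point for each of 14 tumors, red where the median of the X chromosome was under -0.5. Points at the 9 autosomal genes lie within 0.3 of 0, and at Rbbp7 the 6 red tumors lie between -0.76 and -1.22.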

How the data were processed

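Counts of whole reads per Ensembl gene were used as deposited. As the methods state, the authors mapped 65-base single-end reads of poly-A libraries to mm10 with TopHat (2.0.12), dropped reads of low mapping quality, and counted with HTSeq. The strand setting is not given in the sources used here, so overlapping genes on either strand are uncertain. The authors deposited DNA as log2 ratios of 20-kb bins (BWA 7.10, adapted CopywriteR). Missing values and a placeholder far below the range (9440 values) were dropped.

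The genotype of each line was read from the heads of a supplementary gene list that names the lines, and tumor columns by elimination. The tests used edgeR 4.0.16 in R 4.3.3 (TMM, filterByExpr with a minimum count of 10, glmQLFit, glmQLFTest), with a call at a Benjamini-Hochberg adjusted p under 0.01, and DESeq2 1.42.0 as an alternative. The standard error is the log2 change divided by the square root of F. The tests were also run on simulated counts drawn independently for each library. These hold no close pairs such as those among the lines, so they cannot show the effect of such pairs. CPM is TMM-scaled over 15 libraries. Lengths are exon unions of GENCODE M21. The ratio used a pseudocount of 0.5 counts, and 98.5% of genes had a symbol. Promoter windows are from RefSeq (GRCm38.p6). Python 3.11.15 drew the figures.

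Genes named are the 10 members, 6 genes of the pathway, Bap1, division and E2F genes set by name, and the 5 genes most like Ezh2 and Ezh1. Members and lists were chosen with earlier results of these data known. Ezhip and the chromatin profiles were not analysed here.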

Additional observations from a re-analysis of the deposited data

How the results depend on the processing

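Depth limits B1 (8158740 reads, 49 of Ezh2 and 10 of Phf19) and Phf19 and Lcor in all tumors.

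In BNC against NC lines, 0 members and 136 genes were called. Members called were 1 at an adjusted p of 0.05, 1 with DESeq2, and between 0 and 4 when a line was left out (4 without JB87). All genes called were 1761 at 0.05, 2458 with DESeq2, 83 with at least 10 counts in every sample, 1 with the run prefix as a covariate, 0 with close lines summed, and 24 with the division score as a covariate. They were between 0 and 3580 when a line was left out, 0 without JB84, JB91, or JB93, 1 without JB81, 1002 without JB97, and 3580 without JB87. With the replicate number as a block, by the study's numbers or with JB97 as number 3, 0 genes and 0 members were called. Lines with the same number did not all deviate together (correlations of 0.148 for JB81 with JB84, -0.0929 for JB91 with JB87, and 0.11 for JB97 with JB87). JB81 and JB84 also share a prefix, whereas JB87 shares none with JB91 or JB97. With the division score as a covariate the sign turned for Ezh1 (0.079), Rbbp4 (-0.0763), Rbbp7 (-0.11), and Phf19 (-0.21), and without JB81 for Jarid2 (-0.0129), which was 0.353 without JB97.

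In tumors against lines, 7 of 10 members and 5946 of 14383 genes (41.3%) were called. Members called were 4 with more than 2-fold change, 4 with library size only, 4 with at least 10 counts in every sample, 3 against NC lines only, and 3 without the tumors rich in muscle or lung markers. All genes called in the last 3 of these were 3380, 3745, and 2970. For the other settings the count of all genes is not given here. Nothing is read from these counts about the members. No fit with the prefix could be made, because no prefix holds both kinds of library.

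For the slope across tumors, 0 members and 94 genes were called. Members called were 1 at 0.05 and 2 with DESeq2. All genes called were 447 at 0.05, 1496 with DESeq2, 0 with the replication score, 0 without B45 and tumor 22, 29 with the leukocyte score, 49 without B1, 1 without tumor 22, and 0 without B45. The sign turned for Ezh1 with library size only (0.0558) and without B45 and tumor 22 (0.19), and for Eed without both (-0.12) or without B45 (-0.0267). The correlation of Ezh1 turned with library size only (0.197) and without B45 and tumor 22 (0.559), where that of the ratio was -0.685. The difference in the Ezh1 to Ezh2 ratio was between 3.29 and 3.78 for tumors against lines and between -2.28 and -1.43 for BNC against NC lines when a line was left out. Where a value moved, the cause was not tested.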
